A study of Homo sapiens with 18 samples.

Results

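miR-21 was followed with its host gene and its reported targets in HCT116 cells, a human colorectal carcinoma epithelial line, grown to increasing density. The 9 members were chosen by name: the mature arms miR-21-5p and miR-21-3p, the host gene VMP1 and 6 genes reported as miR-21 targets (PDCD4, RECK, SPRY1, TPM1, TIMP3 and BTG2). They are 2 of the 2167 mature miRNAs and 7 of the 38055 genes in the tables, and all 9 passed the filter on low values. The cells were wild type, kept in McCoy's 5A medium with serum, and the groups differed in time after seeding and in density alike: day 3 (50% confluency), day 5 (250%) and day 7 (400%). Time and density cannot be told apart. Small RNA values of whole cells came from 9 libraries, 3 per day, and whole transcriptome values from 6 libraries, 3 on day 3 and 3 on day 5. The labels name the 3 libraries of a day as biological replicates, and how far apart their cultures were kept is not stated.

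miRNAs are cut from a hairpin by DROSHA and DICER1, and usually 1 arm is kept by an Argonaute protein as the guide. The guide pairs through its seed (bases 2 to 8) with sites mostly in 3′UTRs, and pairing lowers translation and stability of the mRNA. miR-21 is known as an abundant miRNA of epithelial and tumour cells that was reported to repress tumour suppressors, matrix protease inhibitors and inhibitors of the RAS/ERK pathway. Its primary transcript overlaps the end of VMP1, which encodes a membrane protein of the endoplasmic reticulum needed to form autophagosomes.

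The mature sequences are shown because the seed defines the sites searched for below, with the seed in capitals (RefSeq, GRCh38.p14). miR-21-5p lies at chr17:59841273-59841294 on the plus strand and miR-590-5p at chr7:74191213-74191234 on the plus strand. Only these mature miRNAs of the RefSeq table share the seed.
miR-21-5p: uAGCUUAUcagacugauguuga
miR-590-5p: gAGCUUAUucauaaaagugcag
The MIR21 hairpin (chr17:59841266-59841337, 72 bases) lies inside an exon of 10 of the 20 annotated VMP1 transcripts (VMP1, chr17:59707192-59842255, plus strand) and ends 918 bases before the end of the gene. Reads from the primary transcript of miR-21 and from the end of VMP1 come from the same strand, so they cannot be told apart in a count per gene.

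A match to the seed was found in an annotated 3′UTR of each of the 6 targets and of VMP1. The 3 motifs searched on the mRNA strand were the 8mer ATAAGCTA, the 7mer-m8 ATAAGCT and the 7mer-A1 TAAGCTA, of which the 8mer contains both others, so that each gene is counted once under its longest match. Windows of 22 bases are shown with the match in capitals (GENCODE 44 on GRCh38, mRNA strand), because they tell the targets with an 8mer from those with shorter matches.
PDCD4, chr10:110898316-110898337: agtggaatattctaATAAGCTA
SPRY1, chr4:123402952-123402973: gtttaattgcttaaATAAGCTA
RECK, chr9:36124169-36124190: tttcacagtttgaaATAAGCTA
TIMP3, chr22:32860395-32860416: acccacatggggacATAAGCTA
TIMP3, chr22:32861748-32861769: gttttgagctttctATAAGCTA
BTG2, chr1:203309462-203309483: gtagtagtatgtttgTAAGCTA
TPM1, chr15:63066072-63066093: caaataaacactgtgTAAGCTA
TPM1, chr15:63064418-63064439: gtccttttgggaaatTAAGCTA
VMP1, chr17:59784973-59784994: gacttgtttattctATAAGCTg
All of these genes lie on the plus strand. PDCD4, SPRY1, RECK and TIMP3 held an 8mer in every annotated coding transcript with a 3′UTR. The TPM1 matches were each in part of the transcripts only, in 4 of 19, the canonical one among them, and in 1 of 19. The VMP1 match was in 1 of 7 and not in the canonical transcript. Over the longest annotated 3′UTR of 19248 genes, 2.58% held an 8mer, 6.64% a 7mer-m8 at best, 4.38% a 7mer-A1 at best, and 13.6% any of them. These shares rest on 1 3′UTR per gene, whereas the members were searched over all annotated coding transcripts. In their longest 3′UTR, TPM1 and VMP1 held no match, and the other member genes kept theirs. A match is a description of letters and not of binding.

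miR-21-5p rose from day 3 to day 7 and was among the most abundant miRNAs of these cells on every day. Its log2 normalized values were 16.70, 16.75 and 16.42 on day 3, then 17, 17.09 and 16.91 on day 5, and 17.91, 17.98 and 17.96 on day 7. No 2 days overlapped, and on this scale the 3 libraries of day 7 lay closest together. Of all miRNAs tested, 22.6% had every library of day 5 above every library of day 3, 53.3% had day 7 above day 5 in this way and 55.8% had day 7 above day 3. The day 3 mean was 16.62 ± 0.18 (SD, n = 3), that of day 5 was 17 ± 0.09, and that of day 7 was 17.95 ± 0.04.

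From day 3 to day 7, miR-21-5p was 2.52-fold higher (log2 fold change 1.33 ± 0.12 SE, adjusted p = 0.000121, limma), the 10th largest rise of the 559 miRNAs tested. Most miRNAs that changed in this comparison rose: 45.3% of those tested passed the threshold with a rise and 8.41% with a fall, and the median over the miRNAs tested was 0.30 on the log2 scale. Day 7 was also above day 5, by 0.95 ± 0.10 (adjusted p = 0.00024, limma), where 39.3% of the miRNAs tested rose. The rise from day 3 to day 5 was 0.38 ± 0.12 and missed the threshold (adjusted p = 0.0734, limma; 8.53% of miRNAs rose). It passed with all 9 libraries in the fit (adjusted p = 0.0315) and on library totals (0.37, adjusted p = 0.00988, limma). The comparisons share libraries, so that they do not stand as separate evidence.

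miR-21-3p, the opposite arm of the hairpin, was less abundant and moved less. Its log2 values were 14.93, 15.01 and 14.65 on day 3, then 15.01, 15.19 and 15.19 on day 5, and 15.50, 15.61 and 15.35 on day 7. Days 3 and 5 overlapped, and day 7 lay above both. The day 7 level was above that of day 3 by 0.62 ± 0.13 (adjusted p = 0.00495, limma), and above that of day 5 by 0.36 ± 0.12 (adjusted p = 0.0357, limma). These differences ranked 148th of 559 and 224th of 567 miRNAs tested, in comparisons where 45.3% and 39.3% were called higher. The call against day 5 was lost on leaving out any day 5 library or day 7 replicate 1 or 2, with adjusted p from 0.0536 to 0.130 in limma. Against day 3, the day 5 difference was 0.27 ± 0.13 (adjusted p = 0.202), and 0.16 without day 3 replicate 3.

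**Figure D1:**
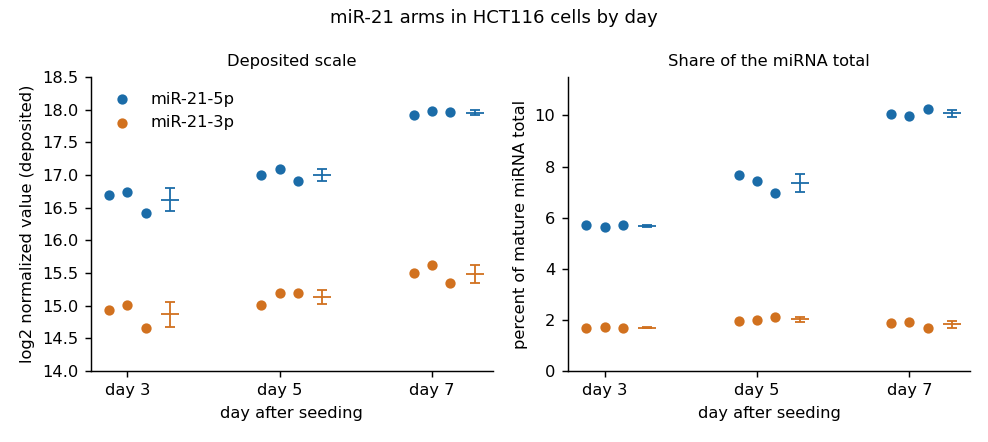
Levels of miR-21-5p (blue) and miR-21-3p (orange) in each small RNA library by day after seeding, as deposited log2 normalized values (left; the axis starts at 14) and as a percent of the summed mature miRNA values of the library (right). Points are libraries, and the bar beside them gives the mean ± SD of 3. The 3 day 7 libraries of miR-21-5p lie between 17.91 and 17.98 on the log2 scale, above every earlier library, whereas the share of miR-21-3p stays between 1.67% and 2.11%.

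The size of these changes depended on the scale. The summed miRNA values were higher on day 7 than on the other days, and when each library was set to the same total, the median change of all miRNAs from day 3 to day 7 became -0.20 and the share of calls that were rises went from 84.3% to 29.2%. On that scale the change of miR-21-5p was 0.83 (adjusted p = 0.000279, limma), and that of miR-21-3p was 0.12 and no longer passed (adjusted p = 0.199). Between day 5 and day 7 the sign of miR-21-3p turned, to -0.14 (adjusted p = 0.117), while miR-21-5p kept a rise of 0.46 (adjusted p = 0.000573). Relative to the median of all miRNAs tested, which no such scaling moves, miR-21-5p stood 1.03 higher from day 3 to day 7 and miR-21-3p 0.32 higher, on the log2 scale.

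As a share of the mature miRNA total, miR-21-5p made up 5.70%, 5.64% and 5.69% on day 3, then 7.66%, 7.42% and 6.95% on day 5, and 10.1%, 9.97% and 10.2% on day 7. No 2 days overlapped, and in share the libraries of day 3 lay closest together. miR-21-5p moved from rank 4 on day 3 to rank 2 on days 5 and 7. Each pair of days gave p = 0.1 by a two-sided exact permutation test, the smallest that 3 libraries against 3 can give. How many of all miRNAs did not overlap in share was not counted. On library totals, 93 of the 559 miRNAs tested were called higher from day 3 to day 7 and 226 lower. The share of miR-21-3p was 1.67%, 1.70% and 1.67% on day 3, then 1.93%, 1.99% and 2.11% on day 5, and 1.89%, 1.93% and 1.67% on day 7, so that day 7 overlapped day 3. Together both arms took 7.36% of the total on day 3, 9.35% on day 5 and 11.9% at the latest time.

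The balance of the arms moved towards miR-21-5p, and this measure does not depend on how a library is scaled. The ratio of miR-21-5p to miR-21-3p was 3.42, 3.32 and 3.42 in the day 3 libraries, 3.96, 3.73 and 3.30 in those of day 5, and 5.33, 5.17 and 6.13 in those of day 7. Days 3 and 5 overlapped, and all libraries of day 7 lay above both. How many of the other pairs of arms separated the days in this way was not counted. By limma over the 139 hairpins with both arms past the filter, the log2 ratio rose by 0.71 ± 0.09 from day 3 to day 7 (adjusted p = 0.00253), where 23% of the pairs of arms passed with a rise and 15.1% with a fall. From day 5 to day 7 it rose by 0.60 (adjusted p = 0.00173; 21.3% of pairs rose), and from day 3 to day 5 the difference was 0.11 (adjusted p = 0.466; 4.55% of pairs rose), with 0.05 to 0.18 on leaving out single libraries. The median over all pairs from day 3 to day 7 was 0.06, and miR-21 stood 10th by rise and 18th by size in either direction. The exact permutation test of the ratio alone gave p = 0.1 for day 7 against either earlier day and p = 0.4 for day 5 against day 3.

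**Figure D2:**
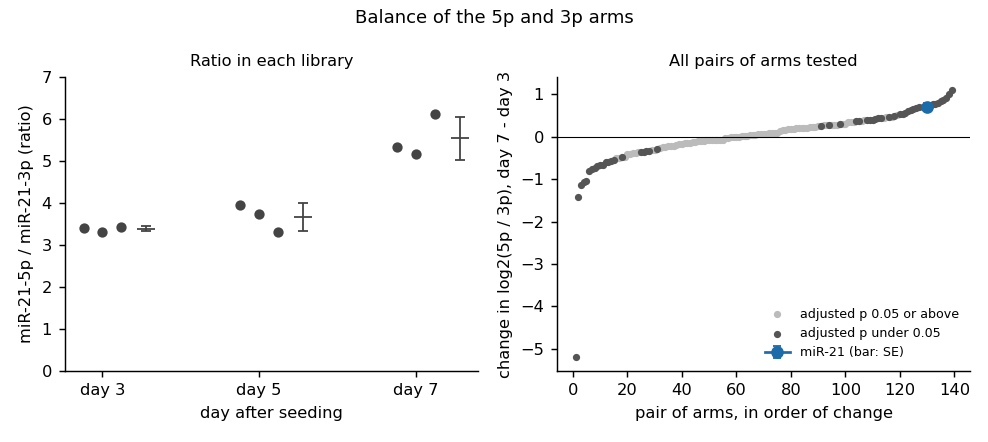
Ratio of miR-21-5p to miR-21-3p in each library by day (left; points are libraries, bars the mean ± SD of 3) and the change in log2(5p/3p) from day 3 to day 7 for all 139 pairs of arms tested, in order of change (right). miR-21 (blue, with its SE) lies at 0.71, the 10th largest rise, and dark points passed an adjusted p of 0.05.

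Whether the second interval differed from the first was tested in 1 fit over the 9 libraries. For miR-21-5p the step from day 5 to day 7 exceeded that from day 3 to day 5 by 0.57 ± 0.18 (adjusted p = 0.0503, limma), just outside the threshold, which 16.9% of the miRNAs tested passed with a larger second step. For miR-21-3p the excess was 0.09 (adjusted p = 0.787), and turned to -0.40 on library totals (adjusted p = 0.0302, limma). On that scale 178 of the 567 miRNAs tested were called with a lower second step, and the median excess was -0.27. For the arm ratio the excess was 0.49 (adjusted p = 0.0684; 12.8% of pairs passed with a larger second step). The value for miR-21-5p was 0.09 on library totals (adjusted p = 0.445). Without day 3 replicate 3 its adjusted p was 0.00312.

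miR-590-5p, with the same seed, was far less abundant. Its mean log2 value was 4.80 on day 3, 4.70 on day 5 and 4.78 on day 7, and its change from day 3 to day 7 was -0.03 (adjusted p = 0.886, limma). On library totals that change was -0.53 (adjusted p = 0.0179, limma). Falls were common on that scale, with 226 of the 559 miRNAs tested called lower and a median change of -0.20. The share of miR-590-5p in the miRNA total went from 0.00158% to 0.00110% with no overlap between those days (exact permutation p = 0.1, the smallest possible). How many of all miRNAs did not overlap in share was not counted. miR-590-5p ranked from 398th to 436th among the miRNAs of a library, against 2nd or 4th for miR-21-5p.

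Over the 9 small RNA libraries, the miRNAs whose log2 values followed miR-21-5p most closely, of 454 compared, were miR-203b-5p (Pearson r = 0.996), miR-221-3p (r = 0.994) and miR-574-5p (r = 0.993). These 9 points share the scale of the library and fall into 3 days, so that the coefficients describe a common course over days. On library totals miR-203b-5p still stood first, with r = 0.981, while miR-574-5p stood 10th (r = 0.949) and miR-221-3p 15th (r = 0.939). miR-21-3p had r = 0.928 and stood 99th, and r = 0.32 on library totals.

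The host gene VMP1 was the most abundant gene among the members and was not called in the gene test. Its normalized read counts were 27800, 27510 and 29870 on day 3 and 22841, 24879 and 25234 on day 5. Every day 5 library lay below every day 3 library. The difference was -0.22 ± 0.08 on the log2 scale (adjusted p = 0.0584, limma on log2(value + 1)), and it was called lower by edgeR (-0.23, adjusted p = 0.0112) and DESeq2 (-0.22, adjusted p = 0.00841) on the recovered reads. Per exon length it stood at 79.0 ± 2.56 reads per kilobase and 1000000 reads on day 3 and 70.8 ± 3.30 on day 5 (SD, n = 3), above 97.9% of genes tested. Day 5 values of VMP1 and miR-21-5p thus went to opposite sides of day 3, and neither passed the threshold in the limma fit of the 6 libraries compared. Values of VMP1 for day 7 were not analysed here. As these are bulk samples, fewer cells with an RNA and less of it per cell cannot be told apart.

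Among the other genes of the 17q23 neighbourhood, 7 in the table, 2 rose and 3 fell from day 3 to day 5. CLTC, the clathrin heavy chain, rose by 0.75 (adjusted p = 0.00222, limma) and HEATR6 by 0.29 (adjusted p = 0.034). PTRH2, a mitochondrial peptidyl-tRNA hydrolase, fell by 0.70 (adjusted p = 0.000554), TUBD1, delta-tubulin, by 0.64 (adjusted p = 0.00144) and RNFT1 by 0.32 (adjusted p = 0.0238). RPS6KB1 (S6 kinase, -0.16) and DHX40 (-0.16) did not pass in limma, but were called lower by edgeR (-0.18, adjusted p = 0.0423, and -0.17, adjusted p = 0.0337). Over all 20129 genes tested, 29.3% rose and 27.6% fell, with a median log2 fold change of 0.01, so that calls in either direction were common.

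Of the 6 reported targets, 3 rose (PDCD4, SPRY1 and BTG2), 1 fell (TPM1) and 2 did not pass (RECK and TIMP3), with a median log2 fold change of 0.52. All genes tested gave 29.3% higher and 27.6% lower in this comparison, a set that includes genes without an annotated coding 3′UTR. Of genes with one, 33.3% rose and 32.7% fell where the longest 3′UTR held a seed match. Where it held none, 38.6% rose and 27.2% fell. The share of all genes set beside the lists below is thus a low background for rises. Counts of both days did not overlap in 6 of the 7 member genes, as in 65.0% of all genes tested.

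SPRY1, a feedback inhibitor of receptor tyrosine kinase signalling through RAS and ERK, rose most. Its normalized counts were 72.0, 73.6 and 58.1 on day 3 and 357, 417 and 499 on day 5. All 3 libraries of day 5 lay far above those of day 3. The mean was 6.25-fold higher, with a log2 fold change of 2.62 ± 0.16 (adjusted p = 0.000189, limma). In reads per kilobase of exon and 1000000 reads, the level went from 0.480 ± 0.090 to 3.12 ± 0.49 (SD, n = 3).

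PDCD4, an inhibitor of the translation helicase EIF4A and a tumour suppressor, counted 938, 914 and 720 on day 3 and 2023, 2433 and 2474 on day 5. No library of day 5 came near those of day 3. The mean was 2.69-fold higher, with a log2 fold change of 1.43 ± 0.14 (adjusted p = 0.000504, limma). Its level per length went from 5.29 ± 1.07 to 14.8 ± 1.50 reads per kilobase and 1000000 reads.

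BTG2, an antiproliferative p53 target that recruits the CCR4-NOT deadenylase, counted 564, 693 and 904 on day 3 and 1001, 1080 and 1030 on day 5. The libraries of day 3 were spread widely, and the highest of them came near the lowest of day 5. The rise of 0.55 ± 0.18 passed (adjusted p = 0.0379, limma). The call was lost on leaving out day 3 replicate 1 or 2 or any day 5 library, with adjusted p from 0.0658 to 0.0958, and with no filter on low values (adjusted p = 0.11). Without day 3 replicate 3, the highest of that day, the rise was 0.73 (adjusted p = 0.00478, limma).

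TPM1, a tropomyosin of actin filaments, moved the other way. Its counts were 740, 730 and 774 on day 3 and 479, 505 and 568 on day 5, with all of day 5 below day 3. It fell by 0.53 ± 0.09 on the log2 scale (adjusted p = 0.00363, limma). Only some TPM1 transcripts carry a seed match, and the table counts the gene as a whole.

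RECK, a membrane-anchored inhibitor of matrix metalloproteinases, counted 271, 318 and 241 on day 3 and 178, 214 and 235 on day 5. The days came close without overlapping. The difference of -0.40 ± 0.15 did not pass (adjusted p = 0.0621, limma), but was called lower by edgeR (-0.43, adjusted p = 0.0115) and DESeq2 (-0.41, adjusted p = 0.0277), and by limma without day 3 replicate 3 (-0.50, adjusted p = 0.0413).

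TIMP3, a secreted inhibitor of metalloproteinases, was the weakest, with 32 to 66 reads per library. Its counts of 52.7, 35.9 and 45.4 on day 3 and 71.6, 66.5 and 49.7 on day 5 overlapped. The difference was 0.48 ± 0.19 (adjusted p = 0.0793, limma), and passed only without day 5 replicate 3 (0.63, adjusted p = 0.0353). TIMP3 lies within SYN3 on the opposite strand, and the counting was stated to use strand.

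In order of level per exon length on day 3, VMP1 was followed by BTG2 (7.20 ± 1.21 reads per kilobase and 1000000 reads), PDCD4 (5.29 ± 1.07), TPM1 (1.42 ± 0.06), RECK (1.39 ± 0.26), SPRY1 (0.480 ± 0.090) and TIMP3 (0.271 ± 0.059). TPM1 and RECK did not differ beyond their spread. The libraries of BTG2 and PDCD4 came within reach of each other, with 6.01 in the lowest library of BTG2 and 6.06 in the highest of PDCD4. On day 5 SPRY1 had passed TPM1 and RECK, and PDCD4 had passed BTG2. The lengths count every annotated exon, so that genes with many transcripts, such as TPM1 and VMP1, are placed lower than their main transcript would be.

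**Figure D3:**
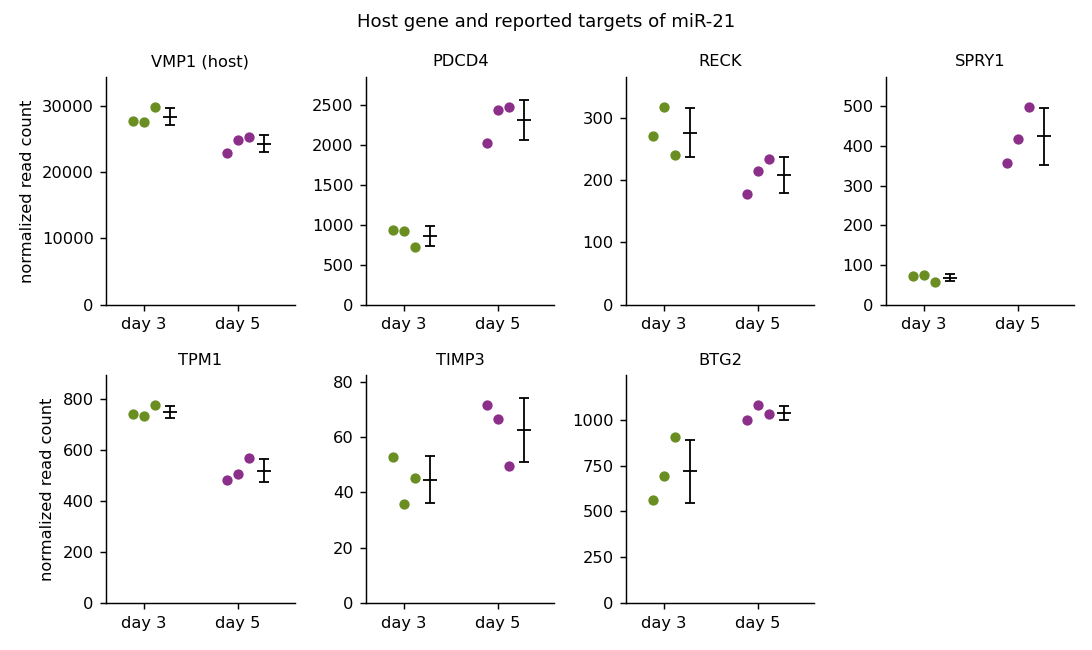
Normalized read counts of the host gene VMP1 and the 6 reported targets in the 3 whole transcriptome libraries of day 3 (green) and day 5 (purple), each panel with its own axis from 0. Points are libraries and bars the mean ± SD of 3. SPRY1 and PDCD4 separate the days most widely, VMP1, RECK and TPM1 are lower on day 5, and the days overlap for TIMP3 alone.

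A longer list of 30 other genes reported as miR-21 targets held 29 in the table, 28 past the filter. Of these, 15 rose, 6 fell and 7 did not pass, and their median log2 fold change was 0.47. The background was 29.3% and 27.6% of all genes, and 33.3% and 32.7% of genes whose longest 3′UTR held a seed match. The largest rises were those of the MAP kinase phosphatase DUSP8 (1.70 ± 0.20), SKI, a repressor of SMAD signalling (1.42 ± 0.13), and the chromatin organizer SATB1 (1.41 ± 0.18). The largest falls were in CDC25A, a cell cycle phosphatase (fell by 0.85), the ubiquitin and SUMO ligase TOPORS (fell by 0.75) and the interleukin subunit IL12A (fell by 0.59). DUSP8, SKI, CDC25A and TOPORS each held an 8mer match, so that genes with the same kind of match moved both ways.

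**Figure D4:**
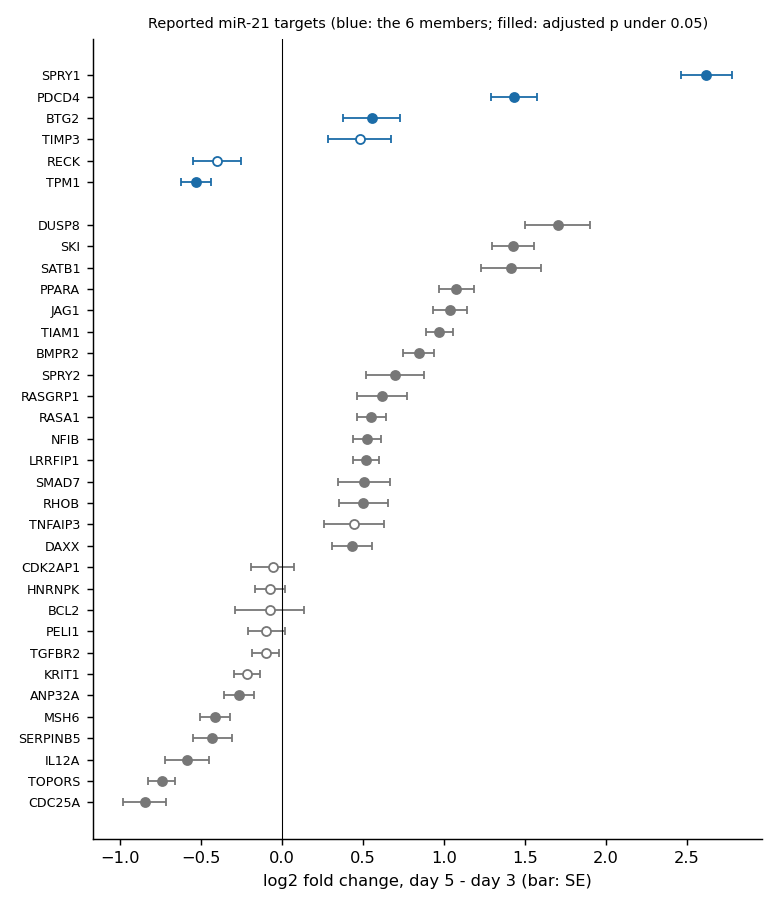
Log2 fold change from day 3 to day 5, with its SE, of the 6 member targets (blue) and the 28 other reported targets past the filter (grey), in order of change. Filled points passed an adjusted p of 0.05. SPRY1 stands furthest to the right at 2.62, and CDC25A and TOPORS lie at the lower end.

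Paralogs of the targets, which share function but mostly no seed match, were counted next. Of 12 genes, 10 passed the filter, 7 of them rose and 1 fell, against 29.3% and 27.6% of all genes, with a median of 0.73. TIMP2 rose by 1.91, the antiproliferative BTG1 by 1.46 and TIMP1 by 1.20, whereas BTG3 fell by 0.72. SPRY2, itself a reported target, rose by 0.70 (adjusted p = 0.0179, limma). A seed match was found in the longest 3′UTR of 3 of the 12.

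Of the 12 transcription factors reported to act at the MIR21 promoter, 9 rose and 1 fell, against 29.3% and 27.6% of all genes, with a median of 0.99. The falls became 2 on library totals and in DESeq2 and 3 in edgeR, where FOS (-0.71, adjusted p = 0.000466) and FOSB (-0.79, adjusted p = 0.0127) passed. The AP-1 subunits FOSL2 (2.67 ± 0.14), FOSL1 (1.82 ± 0.18) and JUND (1.66 ± 0.12) rose most, and JUN by 0.88 (adjusted p = 0.0222, limma). STAT3, a cytokine-activated factor, rose by 1.10. HIF1A fell by 0.63, and FOS had a difference of -0.68 that did not pass (adjusted p = 0.0523). These factors and miR-21-5p were measured in different libraries, and no relation between them was tested.

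Among 11 genes of miR-21 maturation and decay, 4 rose and 3 fell, with a median of -0.06, shares near the 29.3% and 27.6% of all genes. SMAD3, which was reported to assist DROSHA at the miR-21 hairpin, rose by 1.18, AGO2, the slicing Argonaute, by 0.93 and DROSHA, the nuclear hairpin enzyme, by 0.30. The helicase DDX5 fell by 0.64, the poly(A) ribonuclease PARN by 0.42 and DICER1 by 0.32. TENT4B, which adds adenosines to miR-21 tails, had a difference of -0.09 that did not pass.

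Of 12 partners and substrates of the target proteins, 10 passed the filter, 4 rose and 2 fell, against 29.3% and 27.6% of all genes, with a median of 0.01. MMP14, a membrane metalloproteinase held in check by RECK and TIMP proteins, rose by 1.86 ± 0.10 (adjusted p = 0.000156, limma), and EIF4G1, the scaffold that PDCD4 keeps from EIF4A, by 1.16. SOS1, an activator of RAS, rose by 0.78. The deadenylase subunit CNOT7, a partner of BTG proteins, fell by 0.84. EIF4A1 fell by 0.99, at 601 ± 25.1 counts on day 3. It shares sequence with near-identical copies and a readthrough gene, and whether this affected its counts was not tested. MMP2 and MMP9, the substrates usually named for RECK, were below the filter.

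Of 8 VMP1 partners in autophagosome formation, 5 rose and 1 fell, against 29.3% and 27.6% of all genes, with a median of 0.63. The kinase ULK1 rose by 1.50, the lipid scramblase ATG9A by 1.48 and the lipid transfer protein ATG2A by 1.22, and BECN1 of the PI3 kinase complex fell by 0.34. TMEM41B, the scramblase most like VMP1, had a difference of 0.30 that did not pass (adjusted p = 0.106, limma).

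Genes were then grouped by the match of their longest 3′UTR to the miR-21-5p seed, as a description with no test. By this rule TPM1, whose canonical 3′UTR held a 7mer-A1, and VMP1 were placed among the genes with none. Of 13057 genes tested with a 3′UTR, 379 held an 8mer, of which 29.0% rose and 36.1% fell, with a median log2 fold change of -0.08. The median was 0.04 for the 975 genes with a 7mer-m8, -0.02 for the 606 with a 7mer-A1 and 0.14 for the 11097 with none, of which 38.6% rose and 27.2% fell. The groups with and without a match also differed in length: the median 3′UTR was 3484 bases long with an 8mer and 1242 bases with none, and the part of length in this difference was not tested. On library totals every median moved up together, that of the 8mer genes to -0.01 and that of genes without a match to 0.21. PDCD4 and SPRY1, at 1.43 and 2.62, lay above the upper quartile of the 8mer genes, which was 0.46, TIMP3 lay close to it and RECK was below their median.

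**Figure D5:**
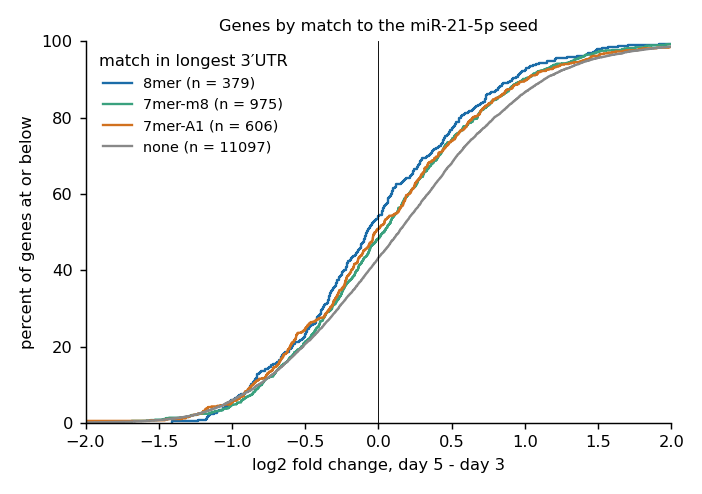
Cumulative distribution of the log2 fold change from day 3 to day 5 for genes whose longest 3′UTR held an 8mer, a 7mer-m8 or a 7mer-A1 match to the miR-21-5p seed or none (n in the key, changes beyond the horizontal axis not shown). The curve of genes without a match lies to the right of the others over most of the range, with medians of 0.14 for no match and -0.08 for an 8mer.

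The label of the cells was set against markers. EPCAM stood at 7227 ± 257 normalized counts on day 3 and 7236 ± 173 on day 5. KRT8, KRT18, KRT19 and CDH1 were present on both days and rose by 1.05, 0.93, 1.98 and 2.63 on the log2 scale. Of the intestinal genes, CDX2 went from 226 ± 19.5 to 306 ± 15.9 (adjusted p = 0.00889, limma) and KRT20 stood at 30.9 ± 6.39 and 19.4 ± 6.04, whereas CDX1 and VIL1 were at or near 0. The 9 epithelial markers summed to between 37139 and 55227 on day 3 and between 100357 and 101454 on day 5. Of the 7 tested, 5 rose, against 29.3% of all genes and 38.6% of genes whose longest 3′UTR held no seed match. The 4 leukocyte markers summed to at most 9.76 in any library. Among 5 fibroblast markers in the table, COL1A1 rose from 521 ± 42.1 to 1129 ± 33.2 while DCN was at or near 0. COL1A2 (-0.39, adjusted p = 0.400, limma) and COL3A1 (0.37, adjusted p = 0.545, limma) did not pass, and PDGFRB was below the filter. The list summed to 526 to 605 on day 3 and 1124 to 1200 on day 5, most of it COL1A1. Of 2 endothelial markers in the table, VWF went from 14.1 ± 5.64 to 32.1 ± 10.8 (adjusted p = 0.0414, limma) and CDH5 was near 0. The part of these differences in the changes of the targets was not tested. Reads recovered per library ranged from 27470978 to 56689369, with both the lowest and the highest on day 3.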

How the data were processed

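Small RNA libraries of HCT116 cells (days 3, 5 and 7, 3 each) and whole transcriptome libraries (days 3 and 5, 3 each) were analysed; day and replicate came from the sample labels. The authors trimmed the small RNA reads, mapped them to mature and hairpin sequences and normalized them, with TMM and edgeR named in the methods; the deposited small RNA tables hold log2 values whose transformation is not given in the sources used here, so the reads behind each library's values are unknown here and counting error could not be given. The authors mapped the rRNA-depleted, UMI-tagged whole transcriptome reads with strand to Ensembl genes of hg38 in CLC Genomics Workbench; the deposited gene table holds a normalized signal per gene, of which 100% of values were within 0.05 of whole multiples of 1 read, so read counts were recovered. Columns with fold changes and p-values calculated by the authors are also in these tables and were not used.

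limma 3.58.1 (R 4.3.3) with Benjamini-Hochberg adjustment was fitted to the deposited log2 values, or to log2(value + 1) for genes, over all features reaching a value of 10 in 3 libraries or more; 0.05 was the threshold, and fold changes on this scale understate those of weak genes. Arm differences were fitted as log2 5p minus log2 3p. The small RNA comparisons with day 3 used their own 6 libraries, and day 7 against day 5 all 9. Shares and ratios were tested by exact permutation (two-sided), which cannot give p under 0.1 here. edgeR 4.0.16 and DESeq2 1.42.0 were run on recovered reads as alternatives, beside library totals, median centring, no filter, 0.1 as pseudocount, a block for the replicate number and leaving out each library; the step and arm fits were added after seeing the data. Sites and lengths came from GENCODE 44 and mature sequences from RefSeq. Python 3.11.15 and pandas 2.3.3 were used for tables. The limma fits were first run on simulated data with known changes.

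The members, lists and tests were chosen with earlier results of these data known. In each list the 3 largest rises and 3 largest falls past the threshold were named, with its defining member; other names were added after their values were seen. Some members of the list of other reported targets are not reported here and were left out of its counts.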

Additional observations from a re-analysis of the deposited data

How the results depend on the processing

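The changes of miR-21-5p from day 3 to day 7 (0.83 to 1.39) and from day 5 to day 7, the arm ratio on day 7, SPRY1, PDCD4 and TPM1 kept direction and call under every alternative run. The arm ratio between days 3 and 5 and its step excess did not pass under any. Calls on miR-21-3p, VMP1, RECK, BTG2 and the day 5 rise of miR-21-5p moved with the scale, the filter, the fit or the tool, and that on TIMP3 moved only without day 5 replicate 3 (0.63); beyond the fewer or more features and libraries that these use, the cause was not tested. From day 3 to day 5, miR-21-5p passed on library totals (0.37), with median centring (0.43) and with all 9 libraries in the fit (0.38), and miR-21-3p on library totals (0.26) and with median centring (0.32). From day 3 to day 7 miR-21-3p did not pass on library totals (0.12), and from day 5 to day 7 it turned to -0.14 on library totals and did not pass with median centring (0.16) or no filter (0.36). The excess of its second step turned to -0.40 on library totals (adjusted p = 0.0302, limma), where 178 of 567 miRNAs were called lower. The same excess was -0.15 with median centring and ranged from -0.031 to 0.19 without single libraries. VMP1 passed in edgeR (-0.23) and DESeq2 (-0.22), RECK in edgeR (-0.43) and DESeq2 (-0.41), and BTG2 did not pass with no filter (0.55). Leaving out single libraries gave 0.29 to 0.43 for miR-21-3p from day 5 to day 7, -0.50 to -0.29 for RECK, 0.33 to 0.63 for TIMP3, 0.39 to 0.73 for BTG2 and -0.11 to 0.11 for miR-590-5p from day 3 to day 7. The 80 miRNAs called between days 3 and 5 became 135 on library totals, 124 with median centring, 50 with no filter and 36 to 118 without single libraries (118 without day 3 replicate 3). The 251 called between days 5 and 7 became 164 with no filter. Seed matches in canonical in place of longest 3′UTRs left 359 in place of 379 genes with an 8mer.

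Whether libraries with the same replicate number belong together is not stated. Deviations of same-numbered libraries from their day means correlated between -0.17 and 0.145 for miRNAs and between -0.01 and 0.03 for genes. For different numbers the ranges were -0.31 to 0.28 and -0.05 to 0.03. The best match of a library in another day had its own number in 6 of 18 cases for miRNAs and 3 of 6 for genes. With 3 libraries per day, these values cannot exclude a pairing. With the replicate number as a block, 302 miRNAs were called between days 3 and 7 (300 without), 71 between days 3 and 5, 254 between days 5 and 7, and 10533 genes (11450 without). The step excess of miR-21-5p (0.57) then passed (adjusted p = 0.0435, limma), and no other call on a member changed.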
